A study of Mus musculus with 6 samples.

Results

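The genes described here are the 10 core genes of MHC class I presentation and the immunoproteasome: Nlrc5, H2-K1, H2-D1, B2m, Tap1, Tap2, Tapbp, Psmb8, Psmb9 and Psmb10. They were chosen by symbol for their place in the pathway, and all 10 were found among the 22377 genes of the count table. All 10 were also among the 13884 genes that passed edgeR's filter on low counts, and the lowest count of any member in any of the 6 libraries was 1437.

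RNA was sequenced from macrophages sorted as CD45+ CD11b+ F4/80+ cells from subcutaneous LLC tumors (a line of mouse Lewis lung carcinoma cells), to learn which genes depend on nucleophosmin (Npm1) in tumor-associated macrophages. According to the methods of the study, the tumors grew in young Npm1+/+ and Npm1+/- mice of both sexes, in which the reduced gene dose is that of the whole host and not of macrophages alone. The sample labels call 3 libraries wt and 3 libraries ko and knockdown, give no genotype, sex or age, mark each library as a separate biosample, and name tumor tissue, TRIzol and a small RNA protocol where the methods name sorted cells, an RNeasy kit and SMARTer cDNA. The groups are called wt and libraries labelled knockdown below, because a knockdown and a heterozygous genotype differ.

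Nearly all nucleated cells display short peptides on MHC class I molecules, each made of a heavy chain and beta-2-microglobulin, to CD8+ T cells. The peptides are cut by the proteasome, carried into the endoplasmic reticulum by the TAP transporter and loaded with the help of tapasin. Interferon gamma, through IRF1 and the transactivator NLRC5, raises the expression of these genes and of 3 catalytic subunits that turn the constitutive proteasome into the immunoproteasome, and macrophages are known to carry much of both.

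Of the 10 genes, 7 lie on chromosome 17, in the mouse major histocompatibility complex (coordinates from the GENCODE annotation of GRCm38). Psmb9, Tap1, Psmb8 and Tap2 follow each other within 34335 base pairs (chr17:34181987-34216321). Tapbp (chr17:33915899-33929292) and H2-K1 (chr17:33996017-34000347) lie at lower coordinates than this cluster and H2-D1 (chr17:35262730-35267499) at higher ones. B2m is on chromosome 2 (chr2:122147686-122153083), and Nlrc5 (chr8:94434356-94527272) and Psmb10 (chr8:105935735-105938444) are on chromosome 8. Of the members, 8 overlap another annotated gene, and H2-K1 and H2-D1 overlap none. Tap1 and Psmb9 overlap each other on opposite strands, and their RefSeq start sites are 225 bases apart and point away from each other. Whether the counting used strand was not given, so reads from the overlapped stretches may have been counted for either gene.

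Promoter sequences show what the classical class I genes share beyond their place in the pathway. RefSeq promoters (GRCm38.p6) were matched for 8 of the 10 members, not for Tap2 and Nlrc5, and the 250 bases before each start site were searched on both strands, with letters chosen after the sequences had been read. In H2-K1, H2-D1 and B2m the letters TGACG (the core of an X2 box, which CREB family factors are known to bind) and ATTGG (the reverse complement of a CCAAT or Y box) stood 25 bases apart from first base to first base on the gene's strand. These boxes belong to the module through which NLRC5 and the RFX factors are known to act. The stretches are shown with both boxes in capitals, for H2-K1 at chr17:34000359-34000388 on the minus strand, for H2-D1 at chr17:35262993-35263022 on the plus strand and for B2m at chr2:122147609-122147638 on the plus strand.
H2-K1: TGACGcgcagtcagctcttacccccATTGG
H2-D1: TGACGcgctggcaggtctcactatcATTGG
B2m: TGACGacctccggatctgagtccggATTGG

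The stretch began 41 bases before the RefSeq start in H2-K1, 101 bases before it in H2-D1 and 78 bases before it in B2m. The pair of boxes at this spacing was present in 15 of 27025 promoters, or 0.0555%, of which 3 belonged to these members and another to the class I-like gene H2-M3. The spacing was taken from B2m, so the match of B2m was fixed in advance. H2-K1 and H2-D1 are related genes, so their matches are not independent. Each box alone was common. TGACG was present in 17.9% of all promoters and in 5 of the 8 members searched, and ATTGG in 34.5% and in 6 of the 8. The searched windows of Tap1 and Psmb9 cover the same bases between their starts, so a single TGACG and a single ATTGG there were counted for both genes.

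A further stretch is shown because it places an NF-kB core and an interferon-type response element side by side in both heavy chains. The capitals mark GGGATTCC and the reverse complement of GAANNGAAA. The coordinates are chr17:34000428-34000457 on the minus strand for H2-K1 and chr17:35262924-35262953 on the plus strand for H2-D1.
H2-K1: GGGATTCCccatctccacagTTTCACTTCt
H2-D1: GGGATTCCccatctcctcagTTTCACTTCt

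GGGATTCC was present in 0.873% of all promoters and GAANNGAAA in 6.34%, and among the members searched H2-K1 and H2-D1 were the 2 that held each. These letters, too, were chosen after the sequences had been read, and the 2 genes are related, so the shares are a description only. TTCNNNGAA was also searched and was present in 7.18% of promoters and, among the members, in Psmb8 alone. B2m held GAAA, any 2 bases and GAAA again, a longer response element that was found in 3.04% of promoters and in 1 of the 8 members. It lies at chr2:122147538-122147567 on the plus strand, with the element in capitals.
B2m: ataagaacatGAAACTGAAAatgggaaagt

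The region between the divergent starts of Tap1 and Psmb9 held TGACG without ATTGG at that spacing. The stretch, with the core in capitals, is chr17:34187458-34187487, printed on the strand of Tap1.
Tap1 and Psmb9: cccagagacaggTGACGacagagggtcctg

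A match describes letters in this window and is not a measured site.

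Total counts ranged from 36550775 to 38147320 per library, and a count of 0 allows up to 3 counts, which is at most 0.0846 CPM, for counting error only. The median count over all genes was 36, 54 and 61 in wt and 77, 88 and 59 in libraries labelled knockdown. Genes with a count numbered 17225, 18080 and 18199 in wt and 18727, 19242 and 18173 in libraries labelled knockdown. Both measures overlapped between the groups and were lowest in wt replicate 1. CPM are counts brought to a common library size by the TMM method, which assumes that most genes do not differ. Npm1 was at 142, 380.2 and 381.2 CPM in wt replicates 1, 2 and 3 and at 441, 498.5 and 342.9 CPM in libraries labelled knockdown 1, 2 and 3. Its groups overlapped, with a log2 fold change of 0.51 (SE 0.36, adjusted p = 0.436, edgeR's quasi-likelihood test adjusted by Benjamini-Hochberg), so the Npm1 level did not bear out the label. The library of wt replicate 1 stood apart on the first principal component, which held 68% of the variance, at -108 against -4.54 to 52 for the others. The sorting markers were present in every library, with Ptprc (CD45) at 927.8 CPM or more, Itgam (CD11b) at 1492 CPM or more and Adgre1 (F4/80) at 127.2 CPM or more.

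The estimate lay below 0 (lower in libraries labelled knockdown) for all 10 members, and none passed the test. Log2 fold changes ran from -0.46 for Psmb10 to -0.23 for H2-K1, with a median of -0.37 beside a median of 0.02 over all genes tested. An estimate below 0 was found for 47.9% of all genes, and 15.8% of all genes had an estimate below the members' median. By edgeR's quasi-likelihood test, adjusted as above, 0 of the 10 members and 0% of all genes had an adjusted p under 0.05, and the members' adjusted p ranged from 0.328 to 0.373. At an unadjusted p under 0.05, 3 members were lower, Tap1, Tap2 and Psmb9, against 8.31% of all genes lower and 6.9% higher. DESeq2 called 36 genes, 0.161% of its 22377, and none of the members, 3 of which were lower at an unadjusted p under 0.05, against 5.35% of all genes lower. It was run without edgeR's filter on low counts. Its shares therefore cover many genes with few counts and are not on the same base as those of edgeR. A heatmap of the study shows fewer mice per group than there are libraries, and a fit to 4 libraries left out wt replicate 1, which stood apart, and knockdown replicate 3, which lay nearest to wt of its group on the first principal component, at 11.7. In these 4 libraries DESeq2 called 1267 genes, 5.82%, again with none of the members, and edgeR called 0, with 3290 genes at an unadjusted p under 0.05. Both left-out libraries were chosen by their place in these data, which can by itself raise the number of genes called. The groups did not overlap for 7 of the 10 members, all lower in libraries labelled knockdown, against 12.6% of all genes apart in that direction and 13.3% apart in the other. Without wt replicate 1 the members' median was -0.27 and 7 were apart, against 14.9% of all genes apart in that direction. In bulk RNA, fewer cells of a type and less RNA per cell cannot be told apart.

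**Figure D1:**
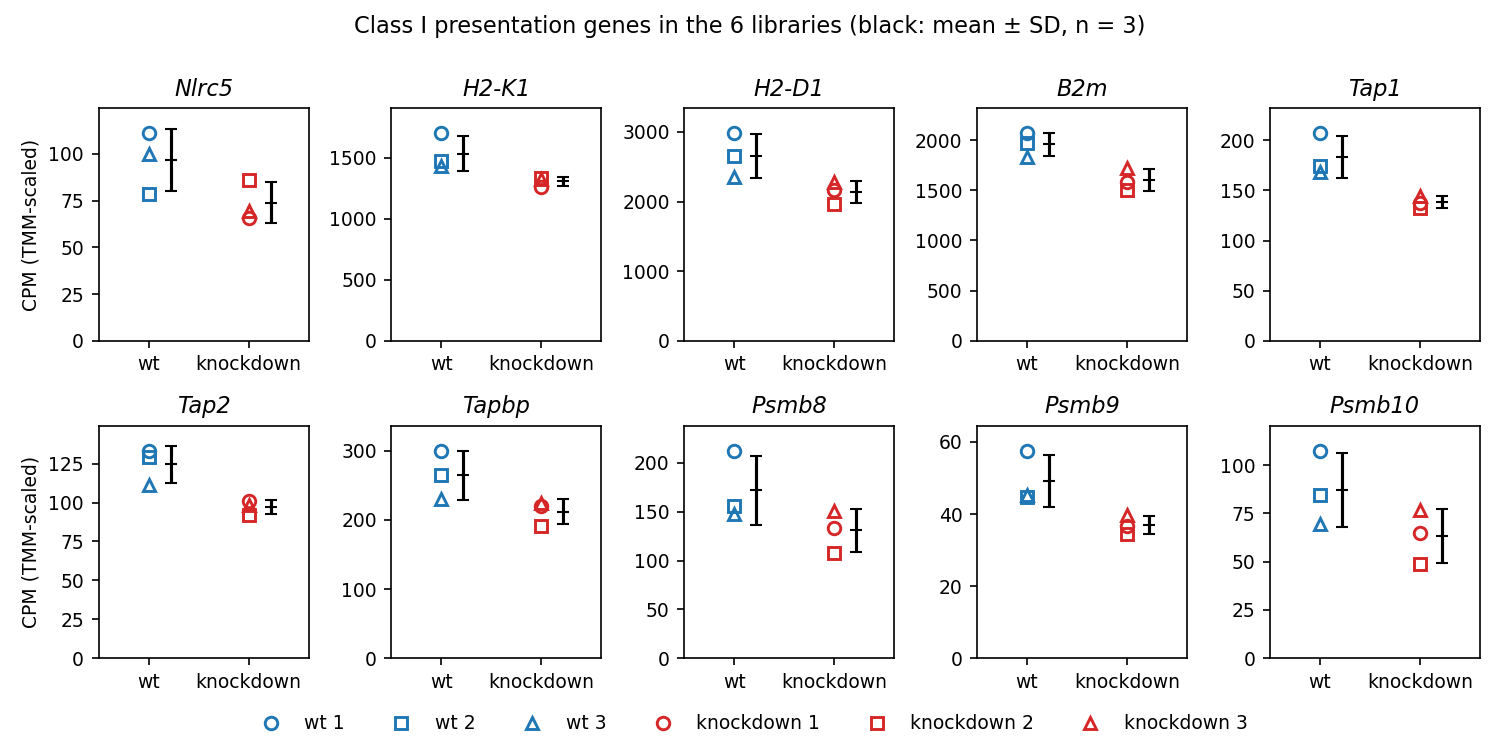
Level of each of the 10 genes (vertical axes, TMM-scaled CPM, starting at 0) in the 3 wt libraries (blue) and the 3 libraries labelled knockdown (red), with the mean ± SD of each group in black. Circles, squares and triangles are replicates 1, 2 and 3, and wt replicate 1 is the highest library in all 10 panels.

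**Figure D2:**
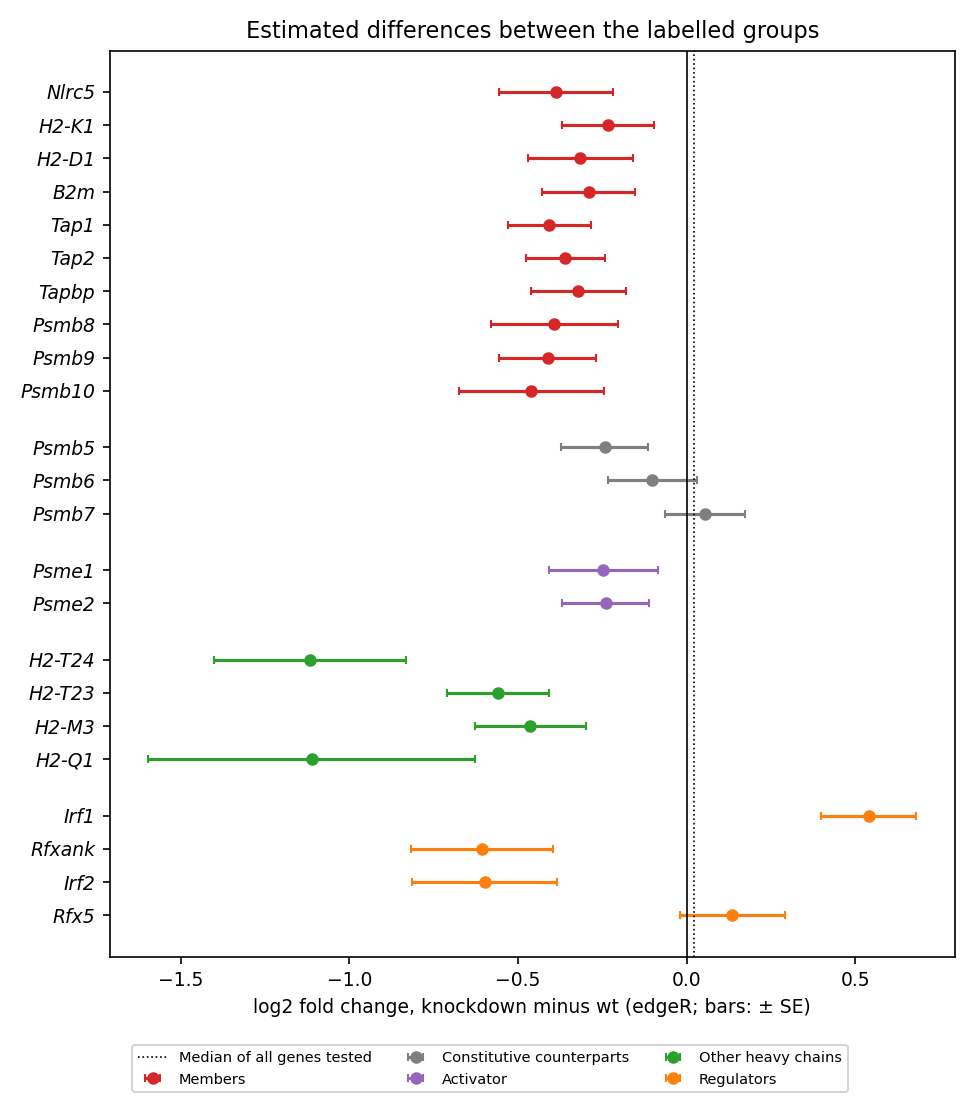
Estimated log2 fold change (libraries labelled knockdown minus wt, horizontal axis) with its standard error for the 10 genes and for named genes of related lists. All 10 members lie to the left of the dotted median of all genes, 0.02, Irf1 lies to the right of it, and none of the genes shown passed the adjusted test.

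Nlrc5, which encodes the transactivator of class I genes, was at 110.9, 78.53 and 100.1 CPM in wt replicates 1, 2 and 3 and at 65.47, 86.19 and 69.53 CPM in libraries labelled knockdown 1, 2 and 3. The groups overlapped, since knockdown replicate 2 lay above wt replicate 2. The estimate was -0.39 (SE 0.17, adjusted p = 0.328, edgeR's quasi-likelihood test). Nlrc5 was also the member that followed the others least closely over the 6 libraries. Pearson's r between a member's log2 CPM and the mean of the other 9 was 0.58 for Nlrc5 and 0.90 or more for the rest, given as a description of 6 points that share library and scaling.

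H2-K1, the heavy chain of the K molecule, was at 1700, 1474 and 1431 CPM in wt and at 1261, 1335 and 1323 CPM in libraries labelled knockdown. H2-D1, the heavy chain of the D molecule, was at 2978, 2653 and 2346 CPM in wt and at 2159, 1969 and 2280 CPM in libraries labelled knockdown. B2m, the light chain shared by all class I molecules, was at 2066, 1972 and 1834 CPM in wt and at 1585, 1498 and 1717 CPM in libraries labelled knockdown. In all 3 genes every wt library was above every library labelled knockdown in CPM, and the gap was narrowest in H2-D1. In deposited FPKM, which are scaled to library totals, H2-K1 overlapped, with knockdown replicate 2 at 702.8 and wt replicate 2 at 631.8. The estimate was -0.23 (SE 0.14, adjusted p = 0.373) for H2-K1, -0.32 (SE 0.16, adjusted p = 0.341) for H2-D1 and -0.29 (SE 0.14, adjusted p = 0.334) for B2m by edgeR's quasi-likelihood test. H2-K1 and H2-D1 have close relatives, and 3.59% of the 100-base windows of H2-D1 and 0.957% of those of H2-K1 occur in another gene as well, or 12.8% and 9.63% of their 50-base windows, so reads could be split between copies. Summed over 13 class I heavy chain genes, of which H2-K1 and H2-D1 held 85.6% of the counts, the level was 4905 ± 528.8 CPM in wt and 4015 ± 144.1 CPM in libraries labelled knockdown (SD, n = 3). The groups of the sum did not overlap, and its estimate was -0.29 (SE 0.16, adjusted p = 0.357, edgeR).

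The parts of the class I molecule kept similar proportions in the 6 libraries. The ratio of H2-D1 to H2-K1, in FPKM (counts over gene length and library total), was 2.20, 2.26 and 2.06 in wt and 2.15, 1.85 and 2.16 in libraries labelled knockdown. The ratio of B2m to the sum of both heavy chains was 0.965, 1.04 and 1.06 in wt and 1.01, 0.999 and 1.04 in libraries labelled knockdown. Both ratios overlapped between the groups.

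Tap1, the first subunit of the peptide transporter, was at 206.9, 174.3 and 168.5 CPM in wt and at 137.4, 132.8 and 144.3 CPM in libraries labelled knockdown. Tap2, the second subunit, was at 133.4, 129.5 and 111.1 CPM in wt and at 100.9, 92.27 and 98.31 CPM in libraries labelled knockdown. Tapbp, which encodes the loading chaperone tapasin, was at 300.3, 264.7 and 229.7 CPM in wt and at 219.7, 191.5 and 224.9 CPM in libraries labelled knockdown. None of the 3 genes overlapped between the groups in CPM, with a wide gap for Tap1 and a narrow one for Tapbp. In deposited FPKM Tapbp overlapped, with knockdown replicate 1 at 83.88 and wt replicate 3 at 82.1. Tap1 had the smallest unadjusted p of the members, with an estimate of -0.41 (SE 0.12, unadjusted p = 0.0116, adjusted p = 0.328, edgeR). The estimate was -0.36 (SE 0.12, adjusted p = 0.328) for Tap2 and -0.32 (SE 0.14, adjusted p = 0.329) for Tapbp by the same edgeR test. The ratio of Tap1 to Tap2, in FPKM, was 1.31, 1.14 and 1.28 in wt and 1.15, 1.22 and 1.24 in libraries labelled knockdown, and overlapped between the groups.

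Psmb8, the immunoproteasome subunit LMP7, was at 212.5, 155.5 and 147.3 CPM in wt and at 133.6, 107.7 and 151.2 CPM in libraries labelled knockdown. Psmb9, the subunit LMP2, was at 57.59, 44.73 and 45.26 CPM in wt and at 36.55, 34.56 and 39.74 CPM in libraries labelled knockdown. Psmb10, the subunit MECL-1, was at 107.5, 84.65 and 69.64 CPM in wt and at 64.76, 48.74 and 76.81 CPM in libraries labelled knockdown. Psmb9 was apart between the groups, whereas knockdown replicate 3 reached above wt replicate 3 in Psmb8 and Psmb10. By edgeR's quasi-likelihood test the estimate was -0.39 (SE 0.19, adjusted p = 0.336) for Psmb8, -0.41 (SE 0.14, adjusted p = 0.328) for Psmb9 and -0.46 (SE 0.22, adjusted p = 0.333) for Psmb10. Without wt replicate 1 the estimate was -0.21 (adjusted p = 0.56) for Psmb8 and -0.29 (adjusted p = 0.53) for Psmb10 by edgeR, and Tap1 was then the lowest member at -0.31.

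Each immunoproteasome subunit replaces a constitutive one, Psmb8 in place of Psmb5, Psmb9 in place of Psmb6 and Psmb10 in place of Psmb7, so the ratio within a pair describes the balance of their transcripts. The estimate for the constitutive genes was -0.24 (adjusted p = 0.355) for Psmb5, -0.10 (adjusted p = 0.661) for Psmb6 and 0.05 (adjusted p = 0.803) for Psmb7 by edgeR. The ratio of Psmb10 to Psmb7, in FPKM, was 0.666, 0.471 and 0.467 in wt and 0.374, 0.305 and 0.436 in libraries labelled knockdown. The groups of this ratio did not overlap, with a difference of -0.52 on the log2 scale (95% interval -1.14 to 0.11, exact two-sided permutation p = 0.1, adjusted over the 3 pairs 0.15). The ratio of Psmb9 to Psmb6 was 0.520, 0.438 and 0.530 in wt and 0.389, 0.403 and 0.405 in libraries labelled knockdown, also without overlap, with a difference of -0.31 (95% interval -0.56 to -0.06, exact two-sided permutation p = 0.1, adjusted 0.15). The ratio of Psmb8 to Psmb5 was 1.61, 1.24 and 1.42 in wt and 1.32, 1.13 and 1.402 in libraries labelled knockdown. These values overlapped, with a difference of -0.15 (95% interval -0.55 to 0.25, exact two-sided permutation p = 0.4), which was -0.06 without wt replicate 1 and also without knockdown replicate 2, and -0.24 without wt replicate 2. With 3 libraries against 3, the smallest p this test can give is 0.1. The 95% intervals are t intervals on the log2 ratios. They do not come from the permutation test and are not adjusted over the 3 pairs. A ratio within a library does not depend on the scaling of that library.

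**Figure D3:**
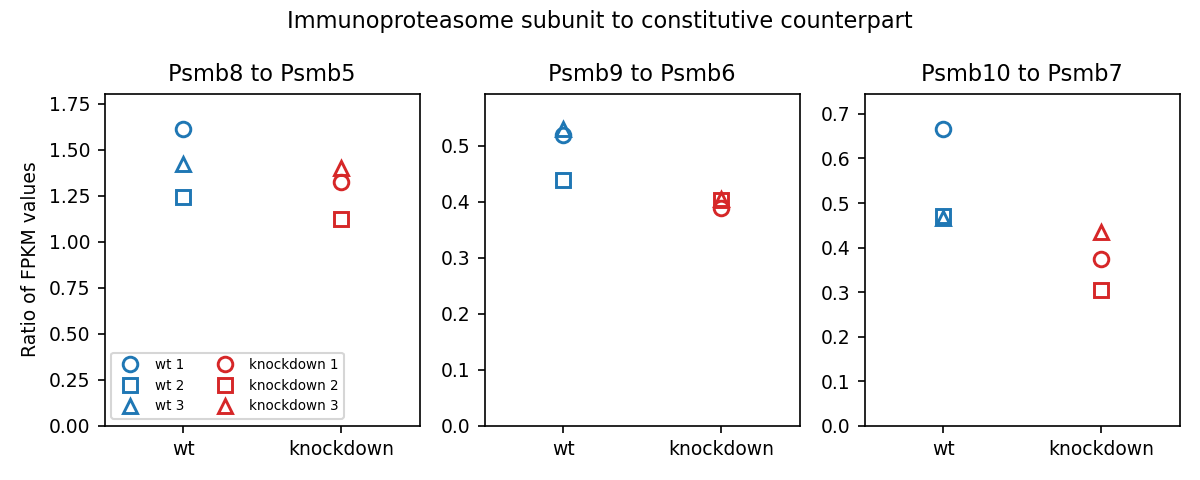
Ratio of each immunoproteasome subunit to its constitutive counterpart in FPKM (vertical axes, starting at 0) in the 3 wt libraries (blue) and the 3 libraries labelled knockdown (red), one symbol per library. The groups overlap for Psmb8 to Psmb5 and do not overlap for Psmb9 to Psmb6 or Psmb10 to Psmb7.

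Per length, the members spanned a wide range of levels. The mean over the 6 libraries was 2062 FPKM for B2m, the 16th highest of 22377 genes, 1372 FPKM for H2-D1 and 651 FPKM for H2-K1, and the ranges of these 3 over the libraries did not overlap each other. Psmb8 followed at 122.4 FPKM (100.9 to 162), overlapping in range with Tapbp at 86.11 FPKM (79.23 to 101.8). Psmb10 at 58.53 FPKM, Tap1 at 54.1 FPKM, Tap2 at 44.27 FPKM and Psmb9 at 33.36 FPKM came next, and each overlapped in range with its neighbour in this order. Nlrc5 was lowest at 10.74 FPKM (8.511 to 13.07).

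The members varied together from library to library. Wt replicate 1 was the highest library in 10 of 10 members, and the lowest was knockdown replicate 2 in 8 members and knockdown replicate 1 in 2. The share of all genes with this order was not computed. The means of the macrophage and MHC class II lists were also highest in wt replicate 1 (0.34 and 0.68) and lowest in knockdown replicate 2 (-0.60 and -0.44), as centred log2 CPM. So were those of the other class I heavy chains (0.38 and -0.26) and the constitutive core proteasome (0.09 and -0.14). The class I transcription regulators and the neutrophil markers had this order too. The interferon-induced reference genes and the dendritic cell markers did not. The mean of the T and NK cell markers ran the other way. The 10 genes held 0.734%, 0.656% and 0.637% of all counts in wt and 0.605%, 0.630% and 0.593% in libraries labelled knockdown. This share is scaled to the library total, and its groups did not overlap, by a narrow gap. Most of it was held by H2-K1, H2-D1 and B2m, at 0.629%, 0.569% and 0.552% in wt and 0.526%, 0.550% and 0.515% in libraries labelled knockdown. Among 10764 other genes, those whose log2 CPM followed the mean of the members most closely over the 6 libraries were Zdhhc3 (Pearson's r = 0.9995), Jup (r = 0.999), Tmem259 (r = 0.997), Ebi3 (r = 0.997) and Piezo1 (r = 0.997), a description of 6 points and the highest of many values.

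Other class I heavy chains, which include the nonclassical molecules, had estimates below 0 in 11 of the 13 genes tested and above 0 in 2, with a median of -0.46. None of the 13 passed the adjusted test, 3 were lower at an unadjusted p under 0.05 and 0 were higher. H2-T23, which encodes Qa-1, a ligand of the inhibitory receptor NKG2A, was at 304.9, 251.2 and 231.6 CPM in wt and at 182, 155.8 and 196.5 CPM in libraries labelled knockdown. The groups were apart, with an estimate of -0.56 (SE 0.15, adjusted p = 0.328, edgeR). H2-T24 had an estimate of -1.12 (SE 0.28, adjusted p = 0.328), H2-Q1 of -1.11 (SE 0.48, adjusted p = 0.328) and H2-M3, which presents formylated peptides, of -0.46 (SE 0.16, adjusted p = 0.328), by edgeR. H2-Q1 had at most 79 counts in a library. H2-Q4, chosen after its values were seen because it did not follow the others, was at 268.8, 230.8 and 252.5 CPM in wt and at 229.1, 287.8 and 216.9 CPM in libraries labelled knockdown, with an estimate of -0.04 (SE 0.15, adjusted p = 0.896, edgeR). Reads of these genes could also be split between copies. The share of 50-base windows found in another gene was 21.8% for H2-Q4, 15% for H2-Q1, 13.6% for H2-T23, 3.17% for H2-T24 and 0.576% for H2-M3.

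Among the other genes of peptide loading and trimming, 5 of 7 estimates were below 0, with a median of -0.14, and 1 was lower at an unadjusted p under 0.05. That gene was Tapbpl, which encodes the peptide editor TAPBPR, with an estimate of -0.45 (SE 0.19, adjusted p = 0.328, edgeR). Of the 14 genes of the constitutive core proteasome, 10 were below 0 and 4 above, with a median of -0.07, and none reached an unadjusted p under 0.05. Of the 9 proteasome activators and assembly factors, 5 were below 0 and 4 above, with a median of -0.04. Psme1 and Psme2, the interferon-inducible subunits of the PA28 activator, had estimates of -0.25 (adjusted p = 0.406) and -0.24 (adjusted p = 0.356), and Psmg2, an assembly chaperone, had one of 0.59 (adjusted p = 0.328), all by edgeR.

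The regulators of class I transcription did not lie in 1 direction. Of 13 genes tested, 8 were below 0 and 5 above, with a median of -0.08, none passed the adjusted test, and at an unadjusted p under 0.05 there were 3 lower and 1 higher. Irf1, an interferon-inducible factor that binds interferon response elements, was at 300.1, 286.5 and 226.2 CPM in wt and at 393.7, 412.3 and 374.7 CPM in libraries labelled knockdown. The groups were apart, higher in libraries labelled knockdown, with an estimate of 0.54 (SE 0.14, adjusted p = 0.328, edgeR). Irf2, a factor of the same family, had an estimate of -0.60 (SE 0.21, adjusted p = 0.328). Of the RFX complex that binds class I and class II promoters, Rfxank had an estimate of -0.61 (SE 0.21, adjusted p = 0.328) and Rfx5 one of 0.14 (SE 0.16, adjusted p = 0.619), by edgeR.

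Of 12 interferon ligands, receptors and kinases, 8 were below 0 and 4 above, with a median of -0.16 and 1 gene at an unadjusted p under 0.05 in each direction. Ifng, the ligand that induces this pathway, was at 1.10, 1.04 and 4.41 CPM in wt and at 6.74, 19.2 and 3.58 CPM in libraries labelled knockdown. Its groups overlapped, with an estimate of 2.17 (SE 0.78, adjusted p = 0.328, edgeR), and its receptor chain Ifngr2 had one of -0.48 (SE 0.16, adjusted p = 0.328). Of 17 interferon-induced reference genes outside the pathway, 15 were below 0 and 2 above, with a median of -0.28, and 4 were lower at an unadjusted p under 0.05. These were Usp18, a brake on type I signalling (-0.83), Cxcl9, a T cell chemoattractant (-0.80), Gbp2, a guanylate-binding protein (-0.67), and Irf7, a factor of the type I response (-0.61), each with an adjusted p of 0.328 by edgeR. Wt replicate 1, the highest library for the class I members, was the lowest for the mean of these 17 genes, at -0.18 from the mean of the 6 libraries on the log2 scale. Of 10 genes of MHC class II presentation, 9 were below 0, with a median of -0.39, and 1 reached an unadjusted p under 0.05. That gene was Ciita, the class II transactivator, with an estimate of -0.96 (SE 0.37, adjusted p = 0.328, edgeR).

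**Figure D4:**
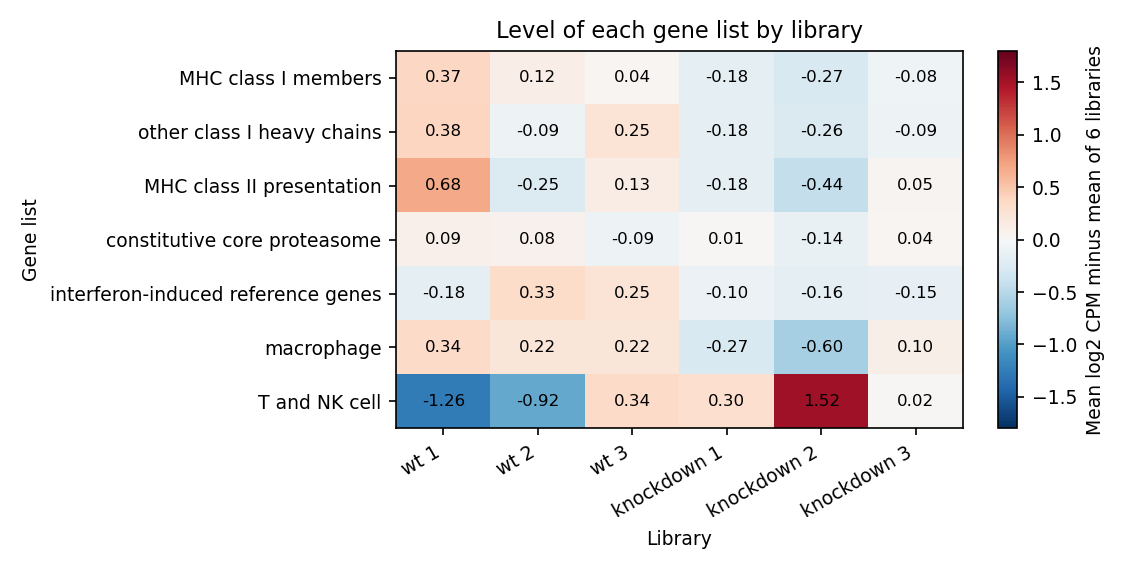
Mean log2 CPM of each gene list in each library minus its mean over the 6 libraries, as color and number. The class I members run from 0.37 in wt replicate 1 to -0.27 in knockdown replicate 2, the macrophage markers are also lowest in knockdown replicate 2 at -0.60, and the T and NK cell markers are highest there at 1.52.

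Markers of several cell types also had estimates that lay in 1 direction, and their part in the values of the class I genes was not tested. All 11 macrophage markers had estimates below 0, with a median of -0.54, and 7 were apart between the groups, all lower, against 12.6% of all genes. Their summed level was 15950 to 21300 CPM in wt and 9493 to 15830 CPM in libraries labelled knockdown. Most of this sum was Lyz2 alone, at 9354 to 14140 CPM in wt and 5667 to 9698 CPM in libraries labelled knockdown, which overlapped. All 11 T and NK cell markers tested had estimates above 0, with a median of 1.09, and a summed level of 54.24 to 143.6 CPM in wt and 115.1 to 323.2 CPM in libraries labelled knockdown. Of 9 fibroblast markers 8 were above 0, with a summed level of 35.57 to 489.1 CPM in wt and 352.3 to 695.8 CPM in libraries labelled knockdown. Col3a1 alone held most of this sum, at 19.01 to 426.2 CPM in wt and 307.7 to 604.5 CPM in libraries labelled knockdown. Its adjusted p was 0.501 by edgeR. Of the 6 neutrophil markers all were below 0, with a median of -0.65, and 4 were apart, all lower. Their summed level was 1694 to 1894 CPM in wt and 730.4 to 1478 CPM in libraries labelled knockdown. Of the 3 epithelial markers tested 2 were above 0, and the summed level of the list was 35.2 to 137.3 CPM in wt and 128.8 to 191.4 CPM in libraries labelled knockdown. Krt8 was at 9.897 CPM in wt replicate 1 and 59.13 CPM or more in the others, where it held most of the epithelial sum. The summed levels of the T and NK cell, fibroblast and epithelial lists overlapped between the groups. Dendritic cell markers had a median of -0.03, with 5 below 0 and 2 above, and B cell markers one of -0.09, with 2 on each side. Of the 3 endothelial markers tested 2 were below 0 and 1 above, with a median of -0.32. None of these markers passed the adjusted test, and the only markers with a count of 0 in any library were the epithelial Krt19 and the endothelial Tek.

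The sign of the members' estimates depended on what the libraries were scaled to, and a scaling shifts all genes by about the same amount. With libraries scaled to their total count, the members' median was -0.22 and that of all genes 0.17. With libraries scaled to the macrophage markers, the members' median was 0.18, all 10 estimates were above 0, and the median of all genes was 0.57. Both scalings were added after the data were examined. The sign under the last one follows from the medians already given, -0.54 for the macrophage markers and -0.37 for the members. The members' place below the median of all genes is not changed by a scaling alone.

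**Figure D5:**
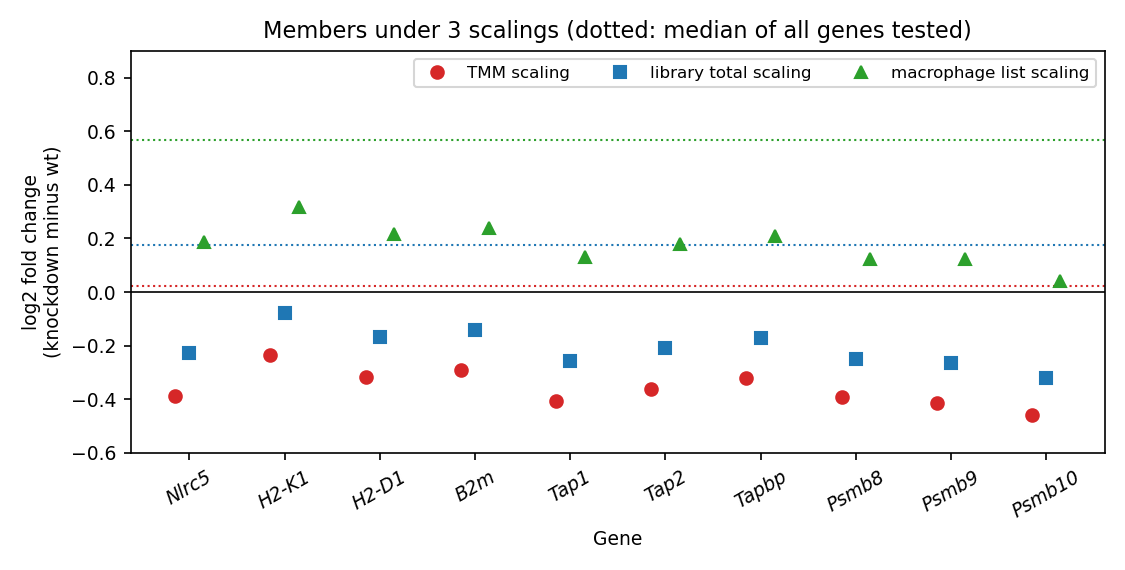
Log2 fold change of each member (libraries labelled knockdown minus wt, vertical axis) under TMM scaling (red circles), library total scaling (blue squares) and scaling to the macrophage markers (green triangles), with the median of all genes under each scaling as a dotted line of the same color. All 10 members are below 0 under the first 2 scalings and above 0 under the last, and below the dotted line of the same color under all 3.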

How the data were processed

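The authors deposited raw read counts of each gene as whole numbers, and FPKM values of the same 6 libraries. As checked from the values, 109646 of 109646 deposited FPKM values followed from the count, a single length for each gene and the library's total, within 1e-04 percent. Per the labels the build was mm10. The aligner and the counting tool were not given in the sources used here. Counts were fitted with edgeR 4.0.16 (R 4.3.3; filterByExpr, TMM, glmQLFit, glmQLFTest), adjusted by Benjamini-Hochberg over the 13884 genes tested at a threshold of 0.05. CPM are TMM-scaled, and the prior count for log2 CPM was 2. The size of each log2 fold change over the root of its F statistic gave the standard error. Alternatives used DESeq2 1.42.0, limma 3.58.1 on log2(FPKM + 1) and log2(FPKM + 0.1), other scalings and filters, left-out libraries, and the replicate number as a block. Ratios of FPKM were compared by exact permutation, and the intervals of their differences are unadjusted t intervals on the log2 ratios. On simulated counts for 13618 genes, edgeR recovered 84 of 100 genes changed by 2 on the log2 scale and 0 of 100 changed by 0.4, with 6 other genes called. The changed genes had mean counts over 100. Counts were drawn independently for each gene, without a library effect shared by many genes as in wt replicate 1. The rates are therefore not the power of these data.

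The 10 members and the gene lists were chosen with earlier results of these data known. From each pathway list, the genes named were at most 4 with the smallest p, with Psmb5, Psmb6, Psmb7, Psme1, Psme2, Irf1 and Rfx5 named in any case, as were Npm1 and 5 genes nearest in pattern. A further gene of that rule is not reported here. Listed genes without a count (H2-T3, H2-T10, H2-Bl, Mx1 and Trac) were not analysed here.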

Additional observations from a re-analysis of the deposited data

How the results depend on the processing

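No member passed an adjusted p of 0.05 under any of the 18 alternatives to edgeR with TMM, and 170 of the 180 member estimates were below 0. The other 10 came from scaling to the macrophage markers, chosen after the data were examined, which gave 0.32 for H2-K1, 0.22 for H2-D1, 0.24 for B2m, 0.13 for Tap1, 0.18 for Tap2, 0.21 for Tapbp, 0.19 for Nlrc5, 0.12 for Psmb8, 0.12 for Psmb9, 0.041 for Psmb10, 0.25 for the summed heavy chains and 0.18 for the members' median. The median was -0.22 with library totals, also added later, -0.21 by limma on log2(FPKM + 1) and -0.22 on log2(FPKM + 0.1), values that are themselves scaled to library totals. DESeq2 called 36 genes in 6 libraries and 1267 without wt replicate 1 and knockdown replicate 3, none of them members, where edgeR called 0 in either. The libraries left out for the latter were chosen from these data, which can raise the number called. Leaving out each library in turn gave members' medians from -0.44 (without wt replicate 3) to -0.27 (without wt replicate 1), 7 to 9 members apart, all lower, against 14.5% to 22.8% of all genes apart in that direction, summed heavy chains from -0.37 to -0.20, and ratio differences from -0.24 to -0.06 for Psmb8 to Psmb5, -0.40 to -0.26 for Psmb9 to Psmb6 and -0.64 to -0.35 for Psmb10 to Psmb7. By deposited FPKM, 5 members were apart, against 6.88% of all genes, and H2-K1 and Tapbp, apart in CPM, overlapped. Deviations of same-numbered libraries correlated at -0.241, 0.06 and -0.337. These values gave no sign of a pairing by number, and so few libraries cannot exclude one. With the replicate block the members' median was -0.37 and 0 genes were called by edgeR, with 1606 at an unadjusted p under 0.05. In simulated counts of 6 libraries, drawn without a shared library effect, edgeR recovered 0 of 100 changes of 0.4 on the log2 scale, and DESeq2 was not simulated.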
